A study of Mus musculus with 12 samples.

Results

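The genes described here are the protein-coding genes that at least 1 of the 4 comparisons of the study listed and whose symbols start with the family names of the ubiquitin and proteasome system: Psm (letters a to f), Ube2, Cul, Fbx, Klhl, Trim and Usp. Usp18, Trim14 and Trim30a were left out by the rule. 120 of the 9338 listed genes, of which 6886 were protein-coding, met it: 34 Fbx, 32 Trim, 17 Usp, 15 Klhl, 10 Psm, 10 Ube2 and 2 Cul genes. The annotation holds 325 protein-coding genes with such symbols whether listed or not, and the values of those not listed were not analysed here. The label of ubiquitin ligase and proteasome genes is narrower than the set, which also holds E2 conjugating enzymes, the deubiquitinases of the Usp family and family members whose ligase activity is not established.

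Ubiquitin is passed from an E1 activating enzyme to an E2 enzyme (the Ube2 genes) and from there, with an E3 ligase, to a substrate protein. The cullins Cul2 and Cul5 are scaffolds of E3 ligases, and F-box (Fbx) and Kelch-like (Klhl) proteins are the subunits that bring substrates to cullin ligases. Most Trim proteins are single-chain RING ligases, and many of the Trim genes respond to interferon. The Usp enzymes remove ubiquitin, and the proteasome, built from a 20S core and a 19S or 11S cap, degrades tagged proteins. Interferon-γ exchanges 3 catalytic beta subunits of the core for Psmb8, Psmb9 and Psmb10, which form the immunoproteasome, and raises its 11S activator Psme1 and Psme2, and the peptides it makes are presented on major histocompatibility complex class I.

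RNA was sequenced from CD31+ cells isolated from the lungs of 12 male mice on a C57Bl/6J background, 1 library per mouse and 3 mice in each of 4 groups. All mice carried 2 floxed alleles of Tet2, a DNA demethylase gene, and all had received tamoxifen (40 mg/kg on 3 days) when 6 to 8 weeks old. WT mice lacked Cre recombinase and TET2 KO mice carried CDH5-CreERT2, whose promoter is active in endothelial cells, so other cells of the isolate keep the gene. The groups were WT on chow (13% of energy from fat), TET2 KO on chow, WT on a high-fat diet (HFD, 60% of energy from fat for 20 weeks) and TET2 KO on HFD, all taken at 30 weeks of age. Tet2 itself was listed only for HFD against chow in WT, so the genotype of each library is taken from the labels. By PCR the authors report Cre recombination in CD31+ lung cells of Cre-positive mice given tamoxifen.

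The libraries held 36.7 to 56.8 M reads on genes (median 39.6 M), the deepest being WT HFD replicate 1. Each comparison came as a table of the genes with an unadjusted DESeq2 p under 0.05 in the authors' test, with counts for its 6 libraries only. Members therefore had to differ to be described, and TET2 KO against WT on chow gave 14 of them, 103 came from HFD against chow in WT, 59 from TET2 KO against WT on HFD and 13 from HFD against chow in TET2 KO. Below, a normalized count is the read count divided by the library's size factor, and a gene is called when edgeR's quasi-likelihood test on those counts gives an unadjusted p under 0.05. Shares of members are set beside the same shares over all listed genes, and the comparisons share libraries, so they are not independent of each other. The marker lists were chosen with earlier results of these data known. All 10 markers of endothelial cells used here were listed for HFD against chow in WT, and all 10 were called higher on HFD. Their summed FPKM (reads per length and depth) was 244 to 652 in the WT chow libraries and 730 to 1265 in the WT HFD libraries. Markers of other cells were present as well: the 6 listed lung epithelial markers summed to 4386 to 5887 FPKM in the WT chow libraries and 2294 to 4651 in the WT HFD libraries, with 2 of the 6 called higher and 2 lower on HFD. In such bulk samples more cells of a type and more RNA per cell cannot be told apart, and the part of cell makeup in the results below was not tested.

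Promoter sequences are shown for 4 members of the interferon-inducible list that rose together on HFD in WT, Trim12c, Trim30d, Trim21 and Ube2l6. They are RefSeq windows on GRCm38.p6, read 5′ to 3′ on the strand of the gene and ended before the first exon of the GENCODE M21 annotation, which in Trim12c and Trim21 reaches further out than the RefSeq transcript start. Capitals mark a match to the interferon-stimulated response element, searched as GAAANNGAAA on both strands.
Trim12c (chr7:104353363-104353599, minus strand): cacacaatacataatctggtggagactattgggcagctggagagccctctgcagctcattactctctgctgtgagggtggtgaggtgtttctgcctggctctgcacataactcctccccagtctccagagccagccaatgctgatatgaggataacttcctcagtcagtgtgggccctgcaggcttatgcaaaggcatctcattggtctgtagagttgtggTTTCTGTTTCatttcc
Trim30d (chr7:104507850-104508099, minus strand): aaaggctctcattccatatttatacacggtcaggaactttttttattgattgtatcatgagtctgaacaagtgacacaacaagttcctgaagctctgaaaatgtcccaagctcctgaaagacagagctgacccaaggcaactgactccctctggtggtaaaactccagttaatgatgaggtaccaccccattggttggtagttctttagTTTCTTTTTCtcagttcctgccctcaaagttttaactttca
Trim21 (chr7:102565487-102565732, minus strand): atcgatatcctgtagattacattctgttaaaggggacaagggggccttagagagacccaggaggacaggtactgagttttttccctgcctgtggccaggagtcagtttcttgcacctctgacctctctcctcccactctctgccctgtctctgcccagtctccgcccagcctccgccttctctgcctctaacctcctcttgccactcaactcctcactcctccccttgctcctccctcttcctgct
Ube2l6 (chr2:84798578-84798827, plus strand): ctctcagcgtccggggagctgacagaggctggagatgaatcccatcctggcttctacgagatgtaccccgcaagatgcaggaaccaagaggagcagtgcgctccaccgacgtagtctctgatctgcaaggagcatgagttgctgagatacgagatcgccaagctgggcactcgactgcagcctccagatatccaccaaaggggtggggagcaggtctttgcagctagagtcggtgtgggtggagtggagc
Trim12c and Trim30d each held 1 such match, starting 29 and 41 bases before the RefSeq transcript start, and Trim21 and Ube2l6 held none. Of 95 members with a window, 6 held the element within 250 bases before a start in at least 1 of their windows, and 2.98% of all 32851 windows held it. Some members have several windows, so the counts of members and the shares of windows here and below are in unlike units. They do not show whether members hold a motif more often. The gamma-activated site, searched as TTCNNNGAA, was in the windows of 8 of the 95, among them Psmb8 and Trim30c, and in 7.02% of all windows. The antioxidant response element core, searched as TGACNNNGC on both strands, was in those of 14 members and in 10.2% of all windows. Of the 12 listed interferon-inducible members, 2 held the first motif and 2 the second. These are matches of letters in short windows and carry no information on binding.

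HFD against chow in WT asked how the diet alone changed the cells, and most of the members came from it. Of the 103 listed, 51 were called higher and 46 lower on HFD, where 42.4% and 49.2% of all 7330 listed genes were called higher and lower. All members are protein-coding, and of the 5491 listed protein-coding genes 2835 were called higher and 2150 lower. After adjustment over all genes tested, 12 members were higher and 10 lower at an adjusted p under 0.05, beside 8.38% and 10.2% of the listed genes. Of the listed protein-coding genes 583 were higher and 508 lower at that limit. By DESeq2 39 members were higher and 33 lower, but DESeq2 also chose the listed genes, and its adjusted share over all of them was not counted. The libraries of the diets did not overlap for 94 of the 103, and for 86.5% of all listed genes. The median log2 fold change of the members was 0.26, and that of the listed protein-coding genes was 0.36. Without WT HFD replicate 1 the calls were 34 higher and 33 lower, and over all listed genes 2128 and 2519. With each library rescaled so that its listed genes had a median log2 ratio of 0, which shifts log2 fold changes by 0.14, 53 members were called higher and 30 lower. All listed genes shifted too, to 3460 higher and 2760 lower. The families differed in their split: 8 of 9 Psm genes were called higher, 10 of 29 Trim genes were called higher and 16 lower, and 5 of 15 Usp genes were called higher and 9 lower. Of the adaptors, 16 of 27 Fbx genes were called higher and 10 lower, and of 13 Klhl genes 7 were called higher and 5 lower.

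**Figure D1:**
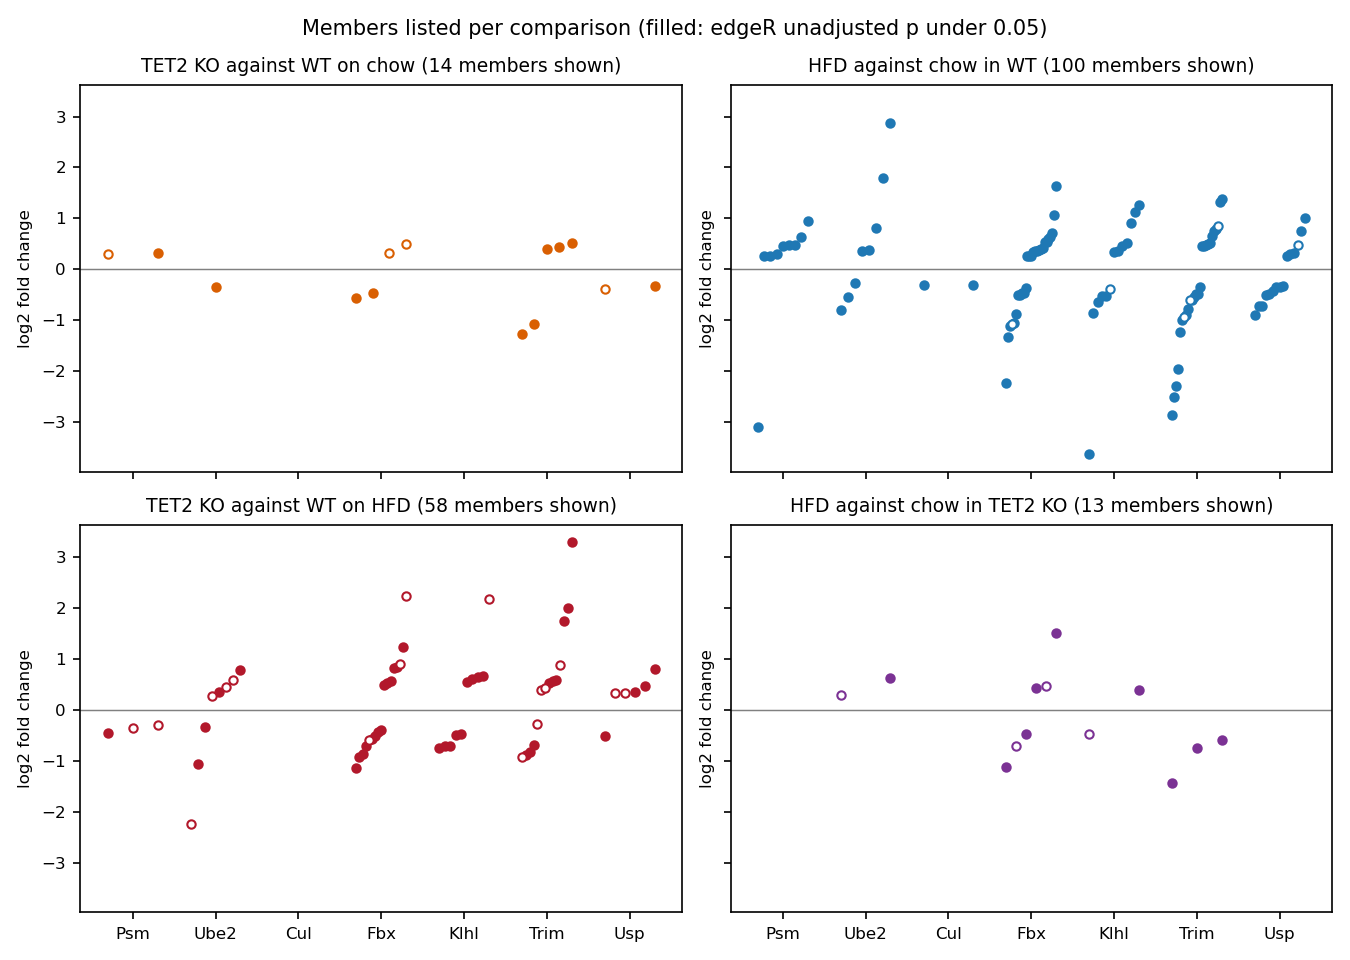
Log2 fold change of each listed member by gene family in the 4 comparisons, with a positive value meaning higher in the first-named group; 4 genes with at most 3 reads over a group are not drawn, and filled points are called at an edgeR unadjusted p under 0.05. HFD against chow in WT holds 103 of the listings, with 8 of 9 Psm genes above 0 and both cullins below it.

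The catalytic subunits of the immunoproteasome were higher on HFD in WT. Psmb9 (ENSMUSG00000096727, chromosome 17, 34181988 to 34187764) had 1539, 1293 and 1291 normalized counts in the WT chow libraries and 2543, 2826 and 2589 in the WT HFD libraries. Its log2 fold change was 0.95 (SE 0.12, adjusted p = 0.0357), the highest of the listed proteasome genes. Psmb10 (chromosome 8, 105935735 to 105938444) had 2383, 2400.2 and 2504 on chow and 3719, 3769 and 3833 normalized counts on HFD (log2 fold change 0.64, SE 0.09, adjusted p = 0.0357). Psmb8, which lies beside Psmb9 in the major histocompatibility complex (chromosome 17, 34197721 to 34201454), had 3370.2, 3016 and 2937 against 4193, 4339.9 and 4540.4 (log2 fold change 0.49, SE 0.11, adjusted p = 0.0473). For each of the 3 genes every HFD library lay above every chow library, and the call held in all 6 fits that left out 1 library. In this comparison 57 of the 103 members and 3794 of the 7330 listed genes were called in all 6 such fits. Of the 5491 listed protein-coding genes 2789 were.

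The 11S activator genes moved the same way by smaller amounts. Psme1 had 4103, 3914 and 3954 normalized counts on chow and 5495, 5499 and 5477 on HFD, and the HFD libraries spanned fewer counts than the chow libraries. Its log2 fold change was 0.46 (SE 0.09, adjusted p = 0.0427). Psme2 had 2168, 1935 and 2142 on chow and 2538, 2542 and 2643 on HFD (log2 fold change 0.31, SE 0.10, adjusted p = 0.105), and was called except without WT chow replicate 2, where it was 0.26. Psme2b, a copy of Psme2 on chromosome 11 with 1 exon whose reads could be divided between the copies, had 1116, 1146 and 1101 on chow and 1752, 1438 and 1512 on HFD (log2 fold change 0.48, SE 0.12), so its own level is uncertain.

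Subunits common to all 20S cores changed less. Psma7, of the outer alpha ring, had 3179, 3269.8 and 3117 normalized counts on chow and 3556, 3903 and 3964 on HFD (log2 fold change 0.26, SE 0.10). Psmb4, of the inner beta ring, had 3334, 3392 and 3495 on chow and 3974, 4117 and 4207 on HFD (log2 fold change 0.27, SE 0.10). The diets overlapped for neither gene, but both lost the call in each fit that left out 1 library except the one without WT HFD replicate 1, with log2 fold changes of 0.23 to 0.30 across all 6 fits, neither was called with TMM factors, and their adjusted p was 0.152 and 0.123. No gene of the 6 ATPase or 14 other subunits of the 19S cap on the list was listed for any of the 4 comparisons. Psmb11, the beta subunit of the thymic proteasome, had 16, 13 and 29 reads in the WT chow libraries and 0, 3 and 4 in the WT HFD libraries, and at 0.16 FPKM or less it was the lowest of the proteasome genes. The median log2 fold change of the 9 listed proteasome genes was 0.46, and every one of the other 8 was called higher.

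**Figure D2:**
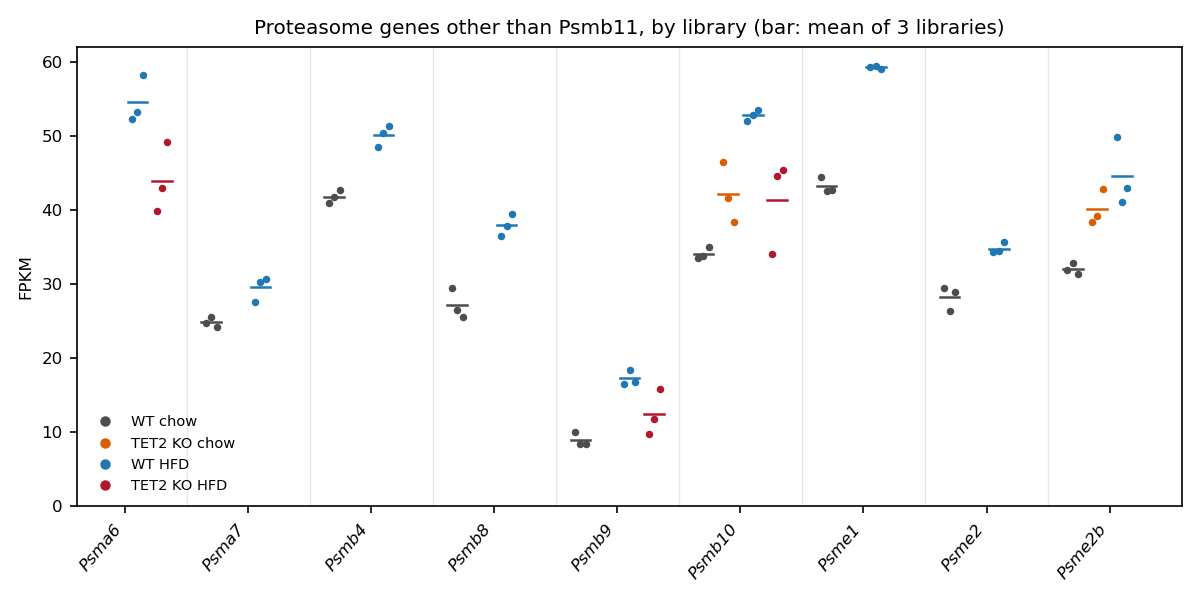
FPKM of 9 of the 10 proteasome genes in each library of the groups whose counts the tables give; a group without points was not listed for that gene, and the bar is the mean of 3 libraries. The WT HFD libraries of Psmb8, Psmb9, Psmb10, Psme1, Psme2 and Psme2b all lie above the WT chow libraries, and the TET2 KO HFD libraries of Psmb9, Psmb10 and Psma6 lie below those of WT HFD.

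Ube2ql1 and Ube2e2, both genes of the E2 family, had the highest log2 fold changes of the members on HFD in WT. Ube2l6, the E2 that conjugates the ubiquitin-like protein ISG15, had 503, 560.4 and 614 normalized counts on chow and 1016, 819.6 and 1099 on HFD (log2 fold change 0.81, SE 0.16, adjusted p = 0.041). Ube2e2 had 25.7, 36.2 and 41.9 on chow and 112, 92.0 and 156 on HFD (log2 fold change 1.79, SE 0.31, adjusted p = 0.0368), with no overlap between the diets. Ube2ql1 had the highest of all members, 2.88 (SE 0.89), on 0.95, 4.53 and 4.30 on chow and 15.5, 7.40 and 50.3 on HFD. In the other direction, Ube2v1, an E2 variant without a catalytic cysteine that serves in lysine-63 chain formation, had 139.9, 142 and 147 on chow and 81.9, 92.0 and 71.7 on HFD (log2 fold change -0.80, SE 0.20). Ube2o, a large enzyme with both E2 and E3 activity, had 3262, 2984 and 3336 on chow and 2123, 2264 and 2191 on HFD (log2 fold change -0.54, SE 0.10, adjusted p = 0.0382). All 5 of these enzymes kept their call without any 1 library.

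The 2 listed cullins were both lower on HFD. Cul2, the scaffold of the von Hippel-Lindau ligase, had 1944, 1882 and 1938 normalized counts on chow and 1503, 1631 and 1511 on HFD (log2 fold change -0.31, SE 0.10, adjusted p = 0.0973). Cul5, the scaffold used by SOCS box proteins, had 2181, 2052 and 2021 on chow and 1659, 1753 and 1618 on HFD (log2 fold change -0.31, SE 0.10, adjusted p = 0.0979). The diets did not overlap for either gene, but Cul2 lost its call without WT HFD replicate 1 (log2 fold change -0.29), Cul5 without WT chow replicate 1 (-0.28), and both when the listed genes were rescaled to a median of 0 (-0.18 each).

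Among the adaptors of cullin ligases, Klhl5 and Fbxl7 had the highest log2 fold change of their families. Klhl5 had 3605, 3766 and 6278 normalized counts on chow and 12509, 10927 and 9428 on HFD (log2 fold change 1.27, SE 0.24, adjusted p = 0.0394), with chow replicate 3 the highest of its group. Fbxl7 had 60.9, 44.2 and 96.7 on chow and 295, 215 and 118 on HFD (log2 fold change 1.64, SE 0.42, adjusted p = 0.0627). Fbxl18 moved the other way, with 1256, 1973 and 2303 on chow and nearly the same count, 735, 728 and 730.1, in each HFD library (log2 fold change -1.33, SE 0.22, adjusted p = 0.0368). Fbxo17 rose with a log2 fold change of 0.64 (SE 0.22) and Fbxw17 with one of 0.59 (SE 0.19). Fbxo17 lost the call without WT chow replicate 2 (0.51) or WT HFD replicate 1 (0.56), and Fbxw17 without WT chow replicate 1 (0.52) or WT HFD replicate 1 (0.43). The lowest of the Fbx genes was Fbxo41 with a log2 fold change of -2.22 (SE 0.89), with overlapping diets on 5.71, 26.0 and 33.3 on chow and 1.48, 10.6 and 2.14 normalized counts on HFD.

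Of the listed interferon-inducible members, 11 of 12 were called higher on HFD in WT and 1, Trim25, lower, beside 42.4% and 49.2% of all listed genes. Of the 5491 listed protein-coding genes 2835 were called higher and 2150 lower, and 583 were higher at an adjusted p under 0.05. The other genes of the interferon-inducible list had no values in this comparison. 6 of the 11 had an adjusted p under 0.05. The libraries of the diets did not overlap for any of the 12, where 86.5% of all listed genes did not. The median log2 fold change of the 12 members was 0.56, beside 0.36 for the listed protein-coding genes. Next to the immunoproteasome genes and Ube2l6 these were Trim genes, 4 of which lie between the start of Trim12c and the end of Trim30d on chromosome 7 (104338754 to 104507849), a cluster of related sequences whose reads may be divided among its copies. In that cluster Trim30d had 715, 887 and 1007 normalized counts on chow and 1691, 1439 and 1392 on HFD (log2 fold change 0.79, SE 0.16, adjusted p = 0.0422). Trim30b had 974, 932 and 919 on chow and 1404, 1159 and 1305 on HFD, a log2 fold change of 0.45 (SE 0.12). Trim12c had 1829.7, 1559 and 1437 on chow and 2456, 2192 and 2014 on HFD (log2 fold change 0.47, SE 0.14). All 3 kept the call without any 1 library. Trim30c rested on few reads, with 22.8, 30.6 and 14.0 on chow and 69.4, 30.7 and 68.5 normalized counts on HFD, and its log2 fold change of 1.33 (SE 0.44) was no longer called without WT chow replicate 3 (1.08), WT HFD replicate 1 (1.14) or WT HFD replicate 3 (1.17).

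Outside the cluster, Trim21, a receptor for antibodies in the cytosol, had 579, 502 and 505 normalized counts on chow and 961, 823 and 715 on HFD (log2 fold change 0.66, SE 0.15, adjusted p = 0.0536). Trim25, the ligase that ubiquitinates the RNA sensor RIG-I, was the most abundant of the 120 members per length and went the opposite way. It had 29799, 30690.2 and 24661 on chow and 18938, 20574 and 19393 on HFD (log2 fold change -0.53, SE 0.13, adjusted p = 0.0555). Per length these were 102 to 128 FPKM on chow and 78.5 to 85.5 FPKM on HFD. Of 10 markers of T cells 2 were listed and called higher, Lck (0.63) and Cd8a (0.42), with a summed FPKM of 23.6 to 37.1 on chow and 34.6 to 51.4 on HFD. Of 10 markers of monocytes and macrophages 2 were higher and 3 lower. Their part in these results was not tested.

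**Figure D3:**
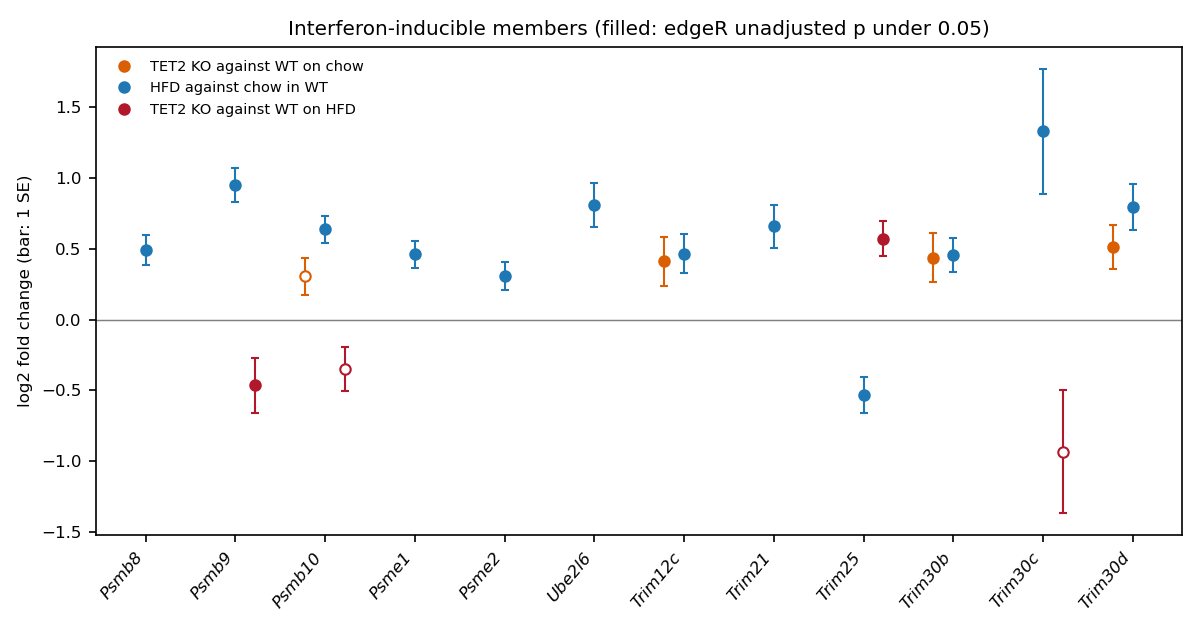
Log2 fold change with 1 SE of the 12 listed interferon-inducible members, by comparison; a gene without a point in a comparison was not listed for it, and filled points are called at an edgeR unadjusted p under 0.05. In HFD against chow in WT, 11 genes lie above 0 and Trim25 lies below it, at -0.53.

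The decreases on HFD in WT included genes best known from striated muscle and genes near the detection limit. Trim69 (-2.51), Trim17 (-1.95) and Fbxl18 (-1.33), which are not on the muscle-enriched list, fell further than Fbxo40 and Fbxo32 below. Klhl40, needed for the sarcomere of skeletal muscle, had 20.0, 101 and 136 normalized counts on chow and 2.21, 6.34 and 12.8 on HFD (log2 fold change -3.63, SE 0.85, adjusted p = 0.0545). Trim72, which repairs muscle cell membranes, had 111, 225 and 239.7 on chow and 14.0, 24.3 and 41.8 on HFD (log2 fold change -2.86, SE 0.48, adjusted p = 0.0368). In both genes WT chow replicate 1 was the lowest of its group and still above every HFD library. The atrophy ligase Fbxo32 had 1623, 1419.8 and 1261 on chow and 1086, 949.6 and 989 on HFD (log2 fold change -0.51, SE 0.13), and its call ended when the listed genes were rescaled to a median of 0 (-0.38). Fbxo40 had 43.8, 44.2 and 66.6 on chow and 19.2, 26.4 and 28.9 on HFD (log2 fold change -1.06, SE 0.32), a call lost without WT chow replicate 3 (-0.83). Trim63, the other atrophy ligase, had 9, 0 and 4 reads on chow and 0 in each HFD library, at least 4.89-fold lower with 3 reads over the group in place of 0. All 5 listed muscle-enriched members were thus called lower, beside 49.2% of all 7330 listed genes and 2150 of the 5491 listed protein-coding genes. The other genes of the muscle-enriched list had no values in this comparison. For Trim63 the diets overlapped at 0 reads, and its call was lost in 5 of the 6 fits that left out 1 library. Of 10 cardiac muscle markers, 1, Ttn, was listed, and it was called lower as well (log2 fold change -0.72) at 0.0503 FPKM or less in every library.

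Further Trim and Usp genes changed in either direction. Trim69 had 126, 163 and 299.9 normalized counts on chow and 18.5, 41.2 and 45.0 on HFD (log2 fold change -2.51, SE 0.46, adjusted p = 0.038). Trim17 had 52.3, 99.6 and 126 on chow and 32.5, 18.0 and 20.3 on HFD (log2 fold change -1.95, SE 0.41, adjusted p = 0.0461). Trim2, a ligase studied in neurons, was higher on HFD, with 192, 174 and 371 against 729, 595 and 601 (log2 fold change 1.38, SE 0.30, adjusted p = 0.0476). Chow replicate 3 was again the highest of its group for Trim69 and Trim2, and no library overlapped between the diets for these 3 genes. Among the deubiquitinases Usp2 was the lowest, with 533, 582 and 577 on chow and 202, 316 and 391 on HFD (log2 fold change -0.90, SE 0.24), and Usp43 the highest (1.00, SE 0.40), a call that held in 1 of the 6 fits without a library, the one without WT chow replicate 3. The remaining 13 Usp genes had log2 fold changes between -0.71 and 0.76.

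The rest of the pathway was read from lists of 5 kinds of genes. 23 of these were listed for HFD against chow in WT, 18 called higher and 5 lower, with 2 higher at an adjusted p under 0.05 and a median log2 fold change of 0.37. Of the 5491 listed protein-coding genes 2835 were called higher and 2150 lower, 583 were higher at an adjusted p under 0.05, and the median was 0.36. The largest group was that of HECT, RING and RBR ligases, with 10 of 12 higher, and its highest log2 fold change was that of Nedd4, a HECT ligase of membrane proteins, at 1.11. Uba7, the E1 of ISG15 and so the partner of Ube2l6, had a log2 fold change of 0.65. The 3 listed cullin partners were higher, from Cops7a (0.27) to Btrc (0.43). Of the proteasome assembly chaperones Psmg4 was higher (0.53), Pomp was higher (0.33) and Psmg1 was lower (-0.47). Of the other deubiquitinases, Stambp was higher (0.40) and Otub2 lower (-0.39).

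TET2 KO against WT on chow asked what loss of endothelial TET2 changed without the diet. 14 members were listed, 4 called higher and 6 lower in TET2 KO, beside 30.6% and 46.0% of the 1298 listed genes. Of the 907 listed protein-coding genes 322 were called higher and 324 lower. WT and TET2 KO libraries did not overlap for 12 of the 14, and for 74.7% of all listed genes. None had an adjusted p under 0.05 by edgeR or by DESeq2, and 1 higher and 1 lower call were left without WT chow replicate 2 or without TET2 KO chow replicate 3. Over all listed genes the first of these fits left 131 higher and 352 lower calls, and the second 249 and 383. With factors from the trimmed mean of M-values (TMM) the calls were 6 higher and 3 lower, and with a median of 0, a shift of 0.15, they were 7 higher and 2 lower. Over all listed genes they were 498 higher and 506 lower with TMM, and 584 and 373 with a median of 0. The WT chow libraries are the same as in the comparison of diets.

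The higher calls on chow in TET2 KO were Psme2b and 3 genes of the chromosome 7 Trim cluster. Trim30d had 700.2, 853 and 961 normalized counts in WT and 1152, 1187 and 1245 in TET2 KO (log2 fold change 0.51, SE 0.16, adjusted p = 1), and it was the only 1 of the 14 to keep its call without any 1 library. Trim30b had 955, 897 and 877 in WT and 975, 1259.9 and 1455 in TET2 KO (log2 fold change 0.44, SE 0.17). Trim12c had 1793, 1500.0 and 1371 in WT and 1745, 2023 and 2429 in TET2 KO (log2 fold change 0.41, SE 0.17), with overlapping genotypes. Trim30b was called in 1 of the 6 fits that left out 1 library, the one without TET2 KO chow replicate 1, and Trim12c in 2, those without WT chow replicate 1 or TET2 KO chow replicate 1, with log2 fold changes of 0.30 to 0.58 and 0.28 to 0.53, and Trim12c was not called with TMM factors (0.44) or by DESeq2 (0.41). Psme2b had 1094, 1102 and 1050.2 in WT and 1305, 1308 and 1447 in TET2 KO (log2 fold change 0.32, SE 0.12), called in 1 of those 6 fits. Psmb10 had 2335, 2309 and 2389.5 in WT and 3211, 2833 and 2637 in TET2 KO, a log2 fold change of 0.30 (SE 0.13) that missed the call while every TET2 KO library lay above every WT library, and it was called with TMM factors (0.33). Fbxw17 had 223, 236 and 274 in WT and 454, 293 and 288 in TET2 KO (log2 fold change 0.50, SE 0.23) and was not called either, except with TMM factors (0.52) or a median of 0 (0.65). 6 of 10 T cell markers were listed here too, all with positive log2 fold changes and 3 of them called, with a summed FPKM of 125 to 197 in WT and 199 to 262 in TET2 KO.

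Some markers of other cells also differed between the genotypes on chow. All 5 listed of 6 mesothelial markers were called lower in TET2 KO (median log2 fold change -1.89), with a summed FPKM of 1.59 to 9.01 in WT and 0.782 to 1.52 in TET2 KO. All 4 listed of 10 fibroblast and smooth muscle markers were called lower (median -1.13), from 4.33 to 9.18 FPKM in WT and 3.05 to 3.86 in TET2 KO, and all 3 listed of 10 lung epithelial markers were called lower (median -0.90), from 4299 to 5643 FPKM in WT and 2363 to 3104 in TET2 KO. No endothelial marker was listed. The part of any of these cell types in the members' values was not tested.

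The lower calls on chow included Trim69, Fbxo30, Ube2o and the X-linked deubiquitinase Usp9x. Trim69 had 123, 157 and 286 normalized counts in WT and 61.7, 112 and 94.7 in TET2 KO (log2 fold change -1.08, SE 0.38), and without WT chow replicate 3, its highest library, the value was -0.65 and not called. Leaving out TET2 KO chow replicate 1 ended that call as well (-0.87). Fbxo30 had 1713, 2796 and 2038 in WT and 1544, 1638 and 1286 in TET2 KO (log2 fold change -0.55, SE 0.21), not called without WT chow replicate 2 (-0.33) or TET2 KO chow replicate 3 (-0.46). Ube2o had 3196, 2872 and 3183 in WT and 2087, 2593 and 2597 in TET2 KO (log2 fold change -0.35, SE 0.14), and Usp9x had 9919.5, 9747 and 9588 in WT and 7398, 8104 and 7842 in TET2 KO (log2 fold change -0.33, SE 0.12). The genotypes did not overlap for any of these 4 genes. Ube2o lost the call in all 6 fits without a library (-0.40 to -0.25) and Usp9x in 5 of them, all but the one without TET2 KO chow replicate 2. Fbxo30, Ube2o and Usp9x were not called when rescaled to a median of 0 (-0.40, -0.19 and -0.17), nor were Ube2o and Usp9x with TMM factors (-0.31 and -0.30).

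TET2 KO against WT on HFD compared the genotypes under the diet. Of the 59 members listed, 21 were called higher and 20 lower in TET2 KO, beside 43.1% and 39.1% of the 3939 listed genes. Of the 2996 listed protein-coding genes 1000 were called higher and 1411 lower. The libraries did not overlap for 40 of the 59, and for 74.7% of all listed genes. By edgeR none had an adjusted p under 0.05, with a lowest adjusted p of 0.261 among them, beside 41 calls without adjustment, and by DESeq2 7 higher and 3 lower members had one. DESeq2 also chose the listed genes, and its adjusted share over all of them was not counted. In several members described below TET2 KO HFD replicate 1 lay far from the WT libraries and replicate 3 near them. Without WT HFD replicate 1 the calls were 11 higher and 9 lower, and without TET2 KO HFD replicate 3 they were 29 higher and 17 lower. Over all listed genes the same fits gave 764 higher and 726 lower, and 1722 and 1127.

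Of the 21 higher calls 6 were Fbx, 6 Trim, 4 Klhl, 3 Usp and 2 Ube2 genes. Usp36, a nucleolar deubiquitinase, had 3444, 4282 and 3585 normalized counts in WT and 7764, 6576 and 5226 in TET2 KO (log2 fold change 0.79, SE 0.18, adjusted p = 0.261). Ube2v1 had 81.3, 92.0 and 71.3 in WT and 146, 140.2 and 134 in TET2 KO (log2 fold change 0.78, SE 0.21), with the groups well apart. Klhl42 had 878, 804 and 700.3 in WT and 1323, 1235 and 1072 in TET2 KO (log2 fold change 0.61, SE 0.15). These 3 genes, none of which overlapped between the genotypes, were called in all 6 fits without a library. Klhl11 had 649, 854 and 596 in WT and 1366, 1044 and 908 in TET2 KO (log2 fold change 0.66, SE 0.21), not called without WT HFD replicate 1 (0.61) or replicate 3 (0.56). Fbxo47 had 27.1, 34.9 and 29.8 in WT and 58.4, 53.1 and 51.3 in TET2 KO (log2 fold change 0.83, SE 0.27), not called without WT HFD replicate 1 (0.74) or TET2 KO HFD replicate 1 (0.77).

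Trim25 was higher in TET2 KO than in WT on HFD. It had 18795, 20567 and 19279 normalized counts in WT and 29943, 29302 and 27831 in TET2 KO (log2 fold change 0.57, SE 0.12, adjusted p = 0.261). The 3 libraries of each genotype lay close together and far from the other genotype, and the log2 fold change was 0.54 to 0.61 across the fits without 1 library. Per length the TET2 KO HFD libraries had 116 to 123 FPKM, beside 78.5 to 85.5 in WT on HFD and 102 to 128 in WT on chow.

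The lower members in TET2 KO on HFD included members that had been called higher on HFD in WT. Klhl5 had 12414, 10923 and 9372 normalized counts in WT and 7565, 6533 and 5353 in TET2 KO (log2 fold change -0.75, SE 0.18, adjusted p = 0.261). Trim2 had 723, 595 and 597 in WT and 438, 296 and 338 in TET2 KO (log2 fold change -0.84, SE 0.19). Fbxo17 had 129.7, 114 and 109 in WT and 55.3, 54.2 and 84.1 in TET2 KO (log2 fold change -0.87, SE 0.26). All 3 were called in every fit without a library, and no library overlapped between the genotypes. Ube2e2 had 111, 92.0 and 155 in WT and 39.2, 54.2 and 77.5 in TET2 KO (log2 fold change -1.07, SE 0.34), not called without WT HFD replicate 3 (-0.84). Trim6, which was not listed for the diet in WT, had 90.8, 81.4 and 55.3 in WT and 33.2, 45.7 and 43.7 in TET2 KO (log2 fold change -0.89, SE 0.30), called in 3 of those 6 fits and not without WT HFD replicate 1 (-0.74), WT HFD replicate 2 (-0.84) or TET2 KO HFD replicate 1 (-0.77). The WT HFD libraries serve both this comparison and that of the diets, so the 2 are not independent. 7 of 10 endothelial markers were listed as lower in TET2 KO on HFD, 6 of them called, with a summed FPKM of 669 to 1152 in WT and 346 to 637 in TET2 KO, and both listed epithelial markers were called lower (70.3 to 85.3 FPKM in WT and 28.8 to 48.0 in TET2 KO). Their part in these values was not tested.

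Proteasome genes were listed as lower in TET2 KO on HFD in 3 cases, of which 1 was called. Psmb9 had 2524, 2825 and 2574 normalized counts in WT and 1512, 1809 and 2420.1 in TET2 KO (log2 fold change -0.46, SE 0.19), and its call held only without TET2 KO HFD replicate 3, the library nearest to WT (-0.67), and ended with TMM factors (-0.50). Without the other 5 libraries in turn its log2 fold change was -0.50 to -0.32. Psmb10 had 3691, 3768 and 3810.3 in WT and 2449.8, 3174 and 3225 in TET2 KO (log2 fold change -0.35, SE 0.15). Psma6, of the alpha ring, had 2685, 2751 and 3000.3 in WT and 2075, 2216 and 2524 in TET2 KO (log2 fold change -0.31, SE 0.14). Neither Psmb10 nor Psma6 was called by edgeR with all libraries, and an unadjusted DESeq2 p under 0.05 was the condition of their listing. Both were called in only 1 fit that left out 1 library, the one without TET2 KO HFD replicate 3 (-0.42 and -0.39). Psmb10 was also called with a median of 0 (-0.45). Of the interferon-inducible list the other listed genes were Trim25, above, and Trim30c (log2 fold change -0.93, SE 0.43, not called).

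The muscle-enriched and other scarce members differed widely among the TET2 KO HFD libraries. Trim69 had 18.3, 41.2 and 44.7 normalized counts in WT and 753, 224 and 26.2 in TET2 KO (log2 fold change 3.28, SE 1.03), so that replicate 3 lay within the WT range and the other two above it. Without TET2 KO HFD replicate 1 its log2 fold change was 1.86 and not called. Trim72 had 13.9, 24.3 and 41.5 in WT and 163, 120.0 and 32.7 in TET2 KO (log2 fold change 2.00, SE 0.64), and without the same library it was 1.54 and not called. Klhl40 had 2.20, 6.34 and 12.8 in WT and 38.2, 54.2 and 1.09 in TET2 KO and was not called (log2 fold change 2.17, SE 1.08), its replicate 3 resting on 1 read. Fbxo32 had 1078, 949 and 983 in WT and 1634, 1487 and 1189 in TET2 KO (log2 fold change 0.52, SE 0.16), a call lost without WT HFD replicate 2 (0.48). Fbxo40 was called at a log2 fold change of 0.83 (SE 0.36) with all libraries and in 1 of the 6 fits without a library, the one without TET2 KO HFD replicate 1 (1.00), and under no other scaling tried. 3 of the 4 listed muscle-enriched members were called higher, beside 43.1% of the 3939 listed genes and 1000 of the 2996 listed protein-coding genes. 0 of the 4 were called in all 6 fits without a library. No cardiac muscle marker was listed. Ube2o had 2107, 2263 and 2179 in WT and 4583, 3020.0 and 2170.1 in TET2 KO (log2 fold change 0.58, SE 0.26) in the same order of replicates, and Fbxw17 had 458, 329.8 and 352 in WT and 160.0, 297 and 297 in TET2 KO (log2 fold change -0.60, SE 0.27). Neither was called, and nor was Ube2t with a log2 fold change of 0.46 (SE 0.21), but with TMM factors Ube2o was called (0.48). Trim38 had 0, 0 and 1 reads in WT and 17, 2 and 0 in TET2 KO.

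**Figure D4:**
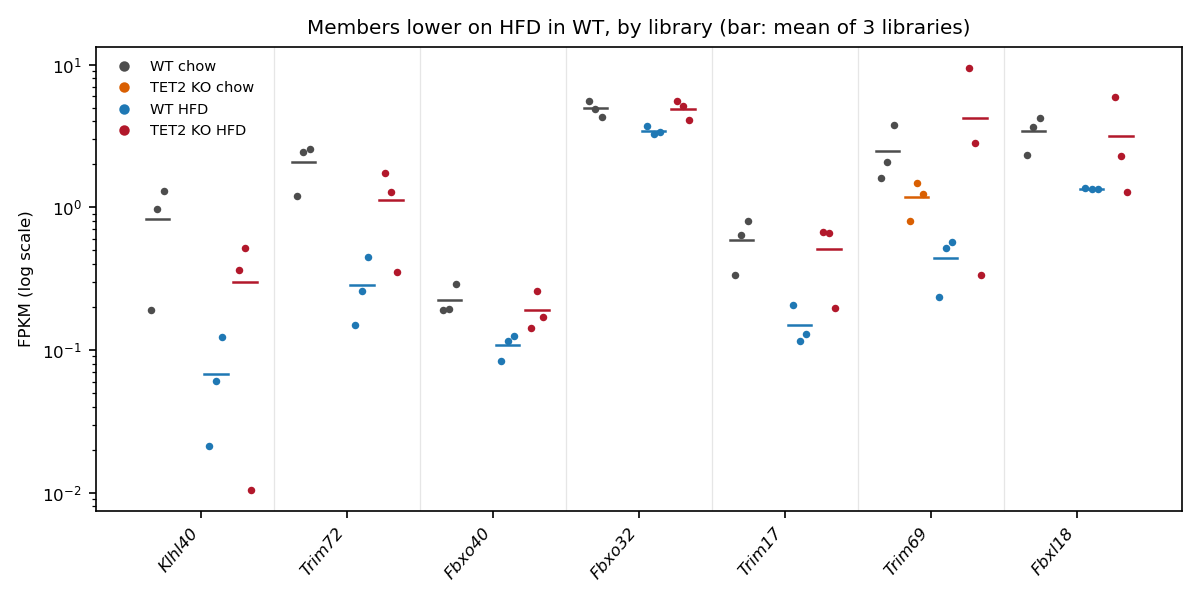
FPKM on a log scale, by library, of 7 members that were lower on HFD in WT; a group without points was not listed for that gene, and the bar is the mean of 3 libraries. WT HFD lies below WT chow in all 7 genes, and the 3 TET2 KO HFD libraries of Trim69 run from 0.334 to 9.45 FPKM.

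Of the rest of the pathway 6 genes differed between TET2 KO and WT on HFD, 3 called higher and 3 lower, beside 1000 and 1411 of the 2996 listed protein-coding genes. Nedd4 had the lowest log2 fold change (-0.66) and Otub2, a deubiquitinase, the highest (0.48). Stambp (-0.49) and Cops7a (-0.33) were the other lower genes, and Birc2 (0.38) and Vhl (0.35) the other higher ones. On chow 2 of these genes were listed, 1 with a positive and 1 with a negative log2 fold change, and neither was called. In HFD against chow in TET2 KO, Cblb (0.49) and Otud1 (0.42) were called higher and Rnf31 (0.32) was not called.

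HFD against chow in TET2 KO asked what the diet did without endothelial TET2. 13 members were listed, 4 called higher and 5 lower on HFD, beside 29.3% and 47.7% of the 1628 listed genes. Of the 1235 listed protein-coding genes 312 were called higher and 616 lower. The libraries did not overlap for 10 of the 13 members and for 72.6% of all listed genes. No member had an adjusted p under 0.05 by edgeR (lowest 0.82), and 1 lower member had one by DESeq2, whose share over all listed genes was not counted. TMM factors and the rescaling to a median of 0, which shift log2 fold changes by 0.25 and 0.30, each gave 6 higher and 1 lower call. All listed genes shifted too, to 636 higher and 354 lower with TMM and 636 and 303 with a median of 0. No proteasome gene, cullin, Usp gene or interferon-inducible member was listed here.

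Trim29, known from epithelia, had 2501, 2088 and 1122 normalized counts on chow and 542, 938 and 634 on HFD (log2 fold change -1.43, SE 0.33, adjusted p = 0.82) and was called in all 6 fits without a library. Of 10 epithelial markers 1 was listed beside it, Epcam, which was lower (-0.60). Trim36 had 303, 264 and 288 on chow and 219, 189 and 155 on HFD (log2 fold change -0.60, SE 0.20), not called without TET2 KO chow replicate 1 (-0.55) or TET2 KO HFD replicate 3 (-0.48). Fbxo6, an adaptor for glycoproteins, had 898, 826 and 698 on chow and 492, 616 and 637 on HFD (log2 fold change -0.47, SE 0.19), a call that held only without TET2 KO chow replicate 3. Fbxo17 had 135, 74.6 and 95.1 on chow and 52.6, 52.1 and 81.3 on HFD (log2 fold change -0.71, SE 0.33) and was not called. Neither Trim36 nor Fbxo6 was called with TMM factors (-0.35 and -0.22) or a median of 0 (-0.29 and -0.17).

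Among the higher members, Fbxo47 had 7.55, 25.2 and 22.3 normalized counts on chow and 55.5, 51.0 and 49.7 on HFD (log2 fold change 1.50, SE 0.46). Ube2t, the E2 of the Fanconi anaemia pathway and the only listed gene of the mitotic list, had 126, 159.9 and 139.6 on chow and 199, 223 and 232 on HFD (log2 fold change 0.62, SE 0.20). Both were called in all 6 fits without a library, while 0 of 10 markers of cycling cells were listed. Fbxl12 (0.44, SE 0.18) and Klhl12 (0.39, SE 0.16) were called in 2 and 1 of those fits, and their log2 fold changes lay between 0.26 and 0.54 and between 0.33 and 0.44. Fbxl12 was at 0.26 without TET2 KO HFD replicate 3, its highest library.

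Markers of several cell types were listed for HFD against chow in TET2 KO too. Of 10 endothelial markers 1, Emcn, was listed, and it was called higher on HFD (log2 fold change 0.98). It had 1.96 to 2.67 FPKM on chow and 3.45 to 7.25 on HFD. Of 8 B cell markers 1, Blk, was listed and called higher (0.52). All 5 listed of 6 mesothelial markers were called higher on HFD (median log2 fold change 2.04), with a summed FPKM of 0.782 to 1.52 on chow and 3.80 to 6.93 on HFD, and all 3 listed of 10 fibroblast and smooth muscle markers had positive log2 fold changes, 2 of them called, from 1.94 to 2.32 FPKM on chow and 2.86 to 7.13 on HFD. The 5 listed of 10 monocyte and macrophage markers had negative log2 fold changes, 3 of them called, with a summed FPKM of 4002 to 5608 on chow and 2018 to 3430 on HFD. The 2 listed of 10 T cell markers were called lower, from 40.4 to 51.5 FPKM on chow and 24.3 to 31.2 on HFD. The part of these cell types in the members' values was not tested.

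10 members had counts in all 12 libraries because the tables that listed them cover the 4 groups together, as had 975 genes in all. In these the difference between the diet effects of the genotypes was tested with 1 model, and 27.8% of the 975 genes were called with a positive and 28.6% with a negative difference. The p-values do not account for the listing, which favours genes whose groups differ. Of the 10 members 2 had a positive and 3 a negative difference that was called. They are the 5 members listed for 3 comparisons, Trim69, Ube2o, Psmb10, Fbxo17 and Fbxw17, and the direction of each is close to fixed by the tables that listed it, so these differences are given as a description.

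Psmb10 had 33.5, 33.9 and 35.0 FPKM in WT on chow, 46.5, 41.7 and 38.4 in TET2 KO on chow, 52.0, 52.8 and 53.5 in WT on HFD and 34.1, 44.6 and 45.5 in TET2 KO on HFD. WT on chow was thus the lowest group, WT on HFD the highest, and the TET2 KO groups overlapped each other and reached, in HFD replicate 1, down into the range of WT on chow. Its genotype by diet difference was -0.66 on the log2 scale (SE 0.23). Fbxo17 had mean levels of 0.725 ± 0.118 FPKM in WT on chow, 1.01 ± 0.303 in TET2 KO on chow, 1.13 ± 0.107 in WT on HFD and 0.618 ± 0.166 in TET2 KO on HFD (SD, n = 3 each), a difference of -1.35 (SE 0.41). Fbxw17 followed the same order of WT groups with 1.59 ± 0.186, 2.25 ± 0.596, 2.39 ± 0.436 and 1.58 ± 0.505 FPKM (SD, n = 3 each), a difference of -1.10 (SE 0.39). The TET2 KO chow and WT HFD groups of both F-box genes overlapped.

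Trim69 was lower in WT on HFD than in WT on chow, with 1.59, 2.08 and 3.79 FPKM in WT on chow, 0.807, 1.48 and 1.25 in TET2 KO on chow, 0.233, 0.522 and 0.567 in WT on HFD and 9.45, 2.84 and 0.334 in TET2 KO on HFD. Its difference was 4.34 (SE 1.18), and it was 2.94 without TET2 KO HFD replicate 1, the library at 9.45. Ube2o had 14.5 ± 0.788 FPKM in WT on chow, 11.4 ± 1.45 in TET2 KO on chow, 9.89 ± 0.329 in WT on HFD and 14.7 ± 5.41 in TET2 KO on HFD (SD, n = 3 each), a difference of 0.91 (SE 0.33) that was 0.53 and not called with TMM factors over the 975 genes. The other 5 members, Fbxo4, Klhl3, Trim29, Trim36 and Trim47, had differences between -0.44 and 0.17 and were not called. They were listed for the diet in both genotypes, and in these genes the means of the chow groups lay on one side of the means of the HFD groups.

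**Figure D5:**
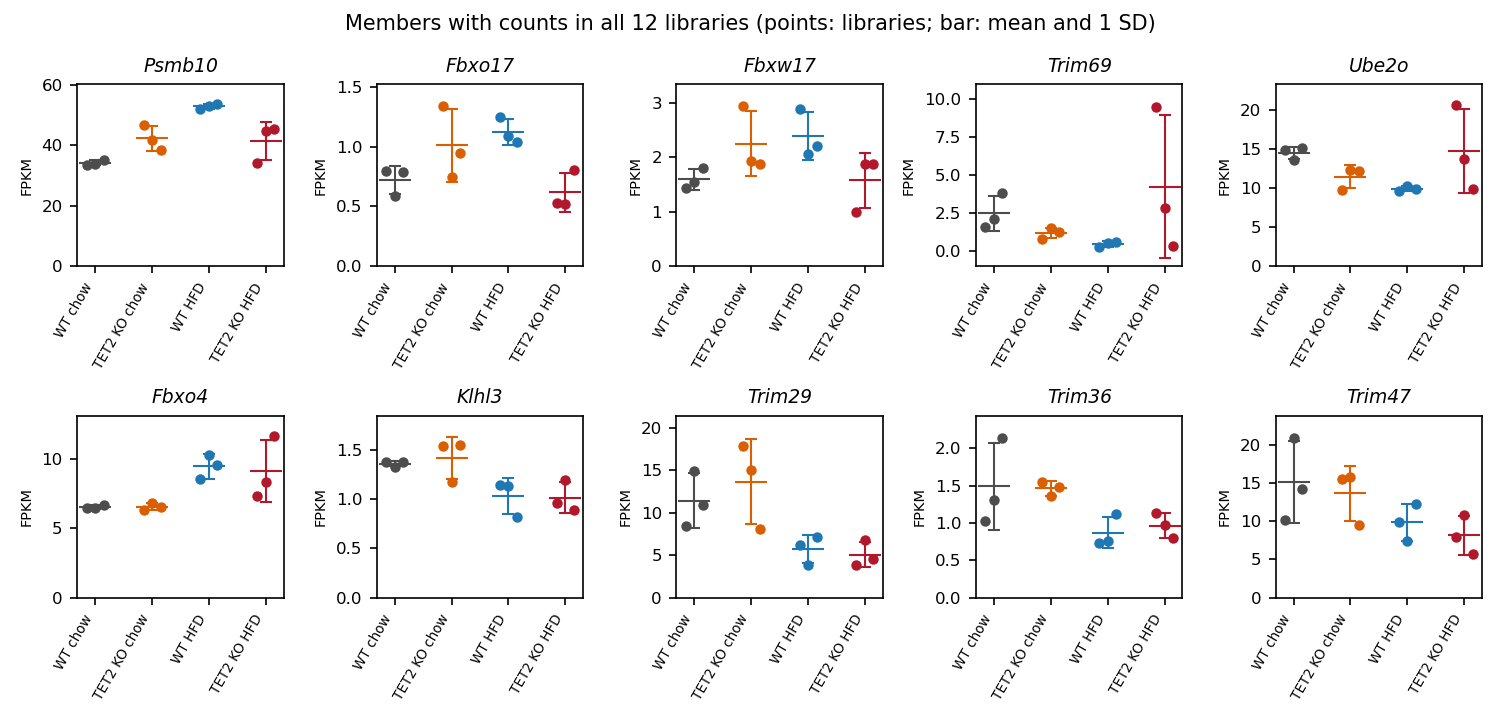
FPKM of the 10 members with counts in all 12 libraries, by group; points are libraries and the bars the mean with 1 SD (n = 3). In Psmb10, Fbxo17 and Fbxw17 WT HFD lies above WT chow and TET2 KO HFD below WT HFD, and in Trim69 and Ube2o TET2 KO HFD replicate 1 is the highest of all libraries.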

How the data were processed

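RNA from CD31+ lung cells of 12 mice was sequenced as paired-end poly(A) libraries. The authors used HISAT2 with mm10 for alignment, featureCounts for gene counts and DESeq2 for the comparisons, with versions, strand setting and annotation release not given in the sources used here. The authors deposited, for each comparison, the read counts, the normalized signal (counts divided by size factors) and FPKM of the genes with an unadjusted p-value under 0.05. The deposited p-value columns were read only to check that threshold and to recover the number of genes adjusted over (18463 to 23768), and the authors' log2 fold changes were not used. Gene lengths are those deposited.

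Counts were tested with edgeR 4.0.16 (quasi-likelihood, R 4.3.3), with library totals and size factors recovered from the deposited columns, and adjusted by Benjamini-Hochberg over the same number of genes as by the authors. SE is the log2 fold change divided by the square root of F. FPKM are the authors' values. Because only listed genes were fitted, the spread between mice was estimated on genes that had passed a first test. The interaction was fitted on the 975 genes with counts in all 12 libraries. The scripts were tested on simulated data. Identifiers were matched to GENCODE M21, which held 7322 of the 7330 in the largest table. Each replicate is 1 mouse.

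Members and lists were chosen with earlier results of these data known. Genes were named by rule: up to 5 higher and 5 lower members per comparison with the largest log2 fold change among calls without overlap and with 50 or more normalized counts in the higher group's mean, members listed for 3 comparisons, the ends of each family, all proteasome genes and cullins, and the interferon-inducible, muscle-enriched and mitotic lists. Of the other pathway lists the rule names the highest and lowest gene, some of which are not reported here, and the others named from them, the markers, Trim38, and the members of the last comparison that were not called were chosen after their values were seen. Alternatives were DESeq2 1.42.0, TMM factors, library totals, a median log2 ratio of 0, a minimum mean of 10 normalized counts, GC and length trends removed, a replicate block and leaving out each library.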

Additional observations from a re-analysis of the deposited data

Results flagged for a closer look

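In 5 members the test of the difference between the diet effects of the genotypes passed its threshold (edgeR, unadjusted, on 975 genes, of which 27.8% and 28.6% were called with a positive and a negative difference). These are the 5 members listed for 3 comparisons, and the listing both lets a gene into this test and goes far to fix its direction, so the differences are descriptions and not independent findings. The log2 difference was -1.35 for Fbxo17, -1.10 for Fbxw17, -0.66 for Psmb10, 4.34 for Trim69 and 0.91 for Ube2o. Ube2o was not called with TMM factors (0.53). Trim69 fell to 2.94 without TET2 KO HFD replicate 1. The p-values do not account for the listing.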

How the results depend on the processing

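The counts of called members depended on the threshold and on single libraries, and where no value shows the cause it was not tested. The counts over all listed genes changed with the scaling and with single libraries as well. In HFD against chow in WT the 51 higher calls became 12 at an adjusted p under 0.05, 9 at a log2 fold change over 1 and 34 to 42 with 1 library left out, and the 46 lower calls became 10, 14, 33 to 40 and, with a median log2 ratio of 0, 30. In TET2 KO against WT on chow the 4 higher calls became 0 adjusted, 0 over 1, 7 with a median of 0, 1 with the replicate block and 1 to 4 without a library, and the 6 lower calls became 0 adjusted, 2 over 1, 3 with TMM, 2 with a median of 0 and 1 to 5 without a library. In TET2 KO against WT on HFD the 21 higher calls became 0 adjusted, 4 over 1 and 11 to 29 without a library, and the 20 lower calls 0, 2 and 9 to 17. In HFD against chow in TET2 KO the 4 higher calls became 0 adjusted, 1 over 1, 2 with the block and 2 to 4 without a library, and the 5 lower calls 0 adjusted, 2 over 1, 1 with TMM, 1 with a median of 0 and 1 to 5 without a library. By DESeq2 the adjusted counts were 39 higher and 33 lower for HFD against chow in WT and 7 and 3 for TET2 KO against WT on HFD. No DESeq2 count over all listed genes, which DESeq2 itself chose, stands beside them. The median log2 fold change of the proteasome genes, 0.46 for HFD against chow in WT, was 0.42 with the GC trend removed, 0.58 with the length trend removed, 0.59 with a median of 0 and 0.40 to 0.48 without a library. On chow its 0.31 in TET2 KO became 0.44, 0.47 and 0.29 to 0.33 (length, median of 0, without a library), and on HFD its -0.35 ranged from -0.42 to -0.25. Genotype by diet differences that were not called changed sign in Trim36 with TMM (-0.21, and -0.18 to 0.39 without a library), Fbxo4 (-0.28 to 0.0738 without a library) and Trim47 (-0.44 to 0.0861).

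Samples with the same replicate number shared only that number: the correlations of their deviations from the group means ran from -0.13 to 0.20, and 2 of 12 pairs correlated best with their own number. With the replicate block the calls were 42 higher and 44 lower for HFD against chow in WT, 17 and 18 for TET2 KO against WT on HFD, 1 and 4 for TET2 KO against WT on chow, and 2 and 4 for HFD against chow in TET2 KO. Over all listed genes the block gave, in the same order, 2524 and 3082, 1435 and 1488, 296 and 515, and 413 and 745.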
